A study of Mus musculus with 6 samples.

Results

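The genes described here encode secreted factors that make blood and lymph vessels grow and the receptors that bind them. The rule named 10 genes, Vegfa, Vegfb, Vegfc, Pgf, Angpt1, Angpt2, Kdr, Flt1, Nrp1 and Nrp2, and took for each the array feature annotated with that symbol alone. It found 9 of them among 30142 genes. The feature of Nrp1 carries more than 1 symbol, so Nrp1 was not analysed here. RNA was measured on Affymetrix MTA 1.0 arrays, 1 array per tumor, in cells sorted from MCRedAL prostate tumor allografts grown in male mice. MCRedAL is a mouse prostate cancer line derived from Myc-CaP, which carries a human MYC transgene under an androgen-responsive probasin promoter, and it is marked with the fluorescent protein mCherry, so both groups share that transgene and that marker. There were 3 untreated tumors (titles tagged Intact, which the submitters call castration sensitive) and 3 tumors of mice given degarelix under the skin once tumors had reached about 500 mm2, as the labels write the unit. Degarelix blocks the receptor for gonadotropin-releasing hormone and so withdraws androgen; the meaning of 7dPC in the titles of these samples, like mouse age, is not given in the sources used here. Sorted cells were positive for mCherry and negative for CD45, CD11b and the macrophage antigen encoded by Adgre1.

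Vascular endothelial growth factor A, the product of Vegfa, binds the tyrosine kinase receptors encoded by Flt1 and Kdr on endothelial cells and drives sprouting and leakiness of vessels. Vegfb and Pgf encode relatives that bind the Flt1 receptor, and Vegfc encodes the main growth factor of lymphatic vessels, which binds the receptor encoded by Flt4. Neuropilins, encoded by Nrp1 and Nrp2, are co-receptors for these factors and for class III semaphorins. Angiopoietins act on the endothelial receptor encoded by Tek: the product of Angpt1 steadies vessels, and that of Angpt2 mostly opposes it. In tumors the ligands are commonly made by the cancer cells and the receptors by the vessels.

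Values are log2 expression after RMA, and a change is degarelix minus untreated on that scale. Arrays of the same group correlated across genes at 0.9948 to 0.9979 and arrays of different groups at 0.9867 to 0.99. Untreated replicate 1 stood apart in markers of macrophages and had the lowest summed level of tumor epithelium markers, as given beside the receptors below. The brightest of the array's 23 background probe sets read 6.59 to 6.93 depending on the array. Vegfa, Vegfb and Pgf lay above it on all 6 arrays and Flt1 on 1, while Vegfc, Angpt1, Angpt2, Kdr and Nrp2 lay below it on every array. The background probe sets span 2.14 to 6.93, so they set no limit of detection for a single gene. Their median was 3.26 on average over the 6 arrays. On each array 30.3% to 35.1% of all genes tested lay above the brightest of them. As for the sorted cells themselves, Krt8, a luminal keratin gene, had a mean of 11.55 in untreated and 11.92 in degarelix samples, and Foxa1, Cldn3, Cldn4 and Hoxb13 also lay above the background probe sets on all 6 arrays. Epcam, Cdh1, Krt18 and Cldn7, likewise genes of prostate epithelium, lay below the brightest of these probe sets on all 6, with untreated means of 3.85, 4.85, 5.50 and 5.60.

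After degarelix the sorted samples held more Vegfa and Vegfc RNA and less Angpt2 RNA, by 1.33-, 1.28- and 1.26-fold, and the other 6 genes did not pass the test. The test was limma over all 30142 genes with Benjamini-Hochberg adjustment and a threshold of 0.05. It called 3 of the 9 genes (33.3%), against 11.7% of all genes tested. Both directions occurred, with 2 genes higher, against 4.19% of all genes, and 1 lower, against 7.51%. The median change of the 9 genes was -0.06, and that of all genes was 0.04. The 3 untreated and 3 degarelix values did not overlap for 5 of the 9 genes, against 31.2% of all genes. After centring of the arrays on their medians, Angpt2 alone of the 9 was called, so that 0 of them were higher and 1 was lower. With cyclic loess or quantile normalization 1 of the 9 was higher and 1 lower. The 3 scalings, in this order, called 2630, 3554 and 3667 of all genes, against 3526 with the values as deposited. Without untreated replicate 2 the count among the 9 was 1, and it was 2 without untreated replicate 1 or degarelix replicate 2. Over all genes 2113, 4700 and 1833 were called in these runs. In limma no gene was called when untreated replicate 3, degarelix replicate 1 or degarelix replicate 3 was left out, where 5, 4 and 3 of the 9 had an unadjusted p under 0.05, against 6135, 5717 and 10706 of all 30142 genes.

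Vegfa, the central ligand of the family, read 8.85, 8.55 and 8.69 in untreated and 9.11, 8.96 and 9.26 in degarelix samples. All 3 degarelix values lay above all untreated ones, the highest untreated value being that of replicate 1. The means were 8.70 ± 0.15 and 9.11 ± 0.15 (SD, n = 3 per group), a 1.33-fold rise (change 0.41, SE 0.10, limma adjusted p = 0.0368). In RNA from sorted cells, more cells of a type and more RNA per cell cannot be told apart. Over the alternatives the change was 0.34 to 0.51. As the groups did not overlap, only the scalings could turn its direction, and with them it was 0.36 to 0.51. The call was lost in limma with median centring (adjusted p = 0.0968) and on leaving out untreated replicate 2 (0.12), untreated replicate 3 (0.103), degarelix replicate 1 (0.117) or degarelix replicate 3 (0.0762).

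Vegfc, the lymphatic factor, read 5.84, 5.96 and 5.95 in untreated and 6.26, 6.13 and 6.41 in degarelix samples. The groups did not overlap, and degarelix replicate 3 was highest, as it was for Vegfa. The means were 5.92 ± 0.07 and 6.27 ± 0.14 (SD, n = 3 per group), a 1.28-fold rise (change 0.35, SE 0.09, limma adjusted p = 0.0334). This call depended on the scaling: in limma the adjusted p was 0.129 with median centring, 0.0963 with cyclic loess and 0.0678 with quantile normalization. It was also lost on leaving out untreated replicate 1 (0.0595), untreated replicate 2 (0.0748), untreated replicate 3 (0.0824), degarelix replicate 1 (0.102) or degarelix replicate 3 (0.0573). The change itself stayed between 0.24 and 0.42.

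**Figure D1:**
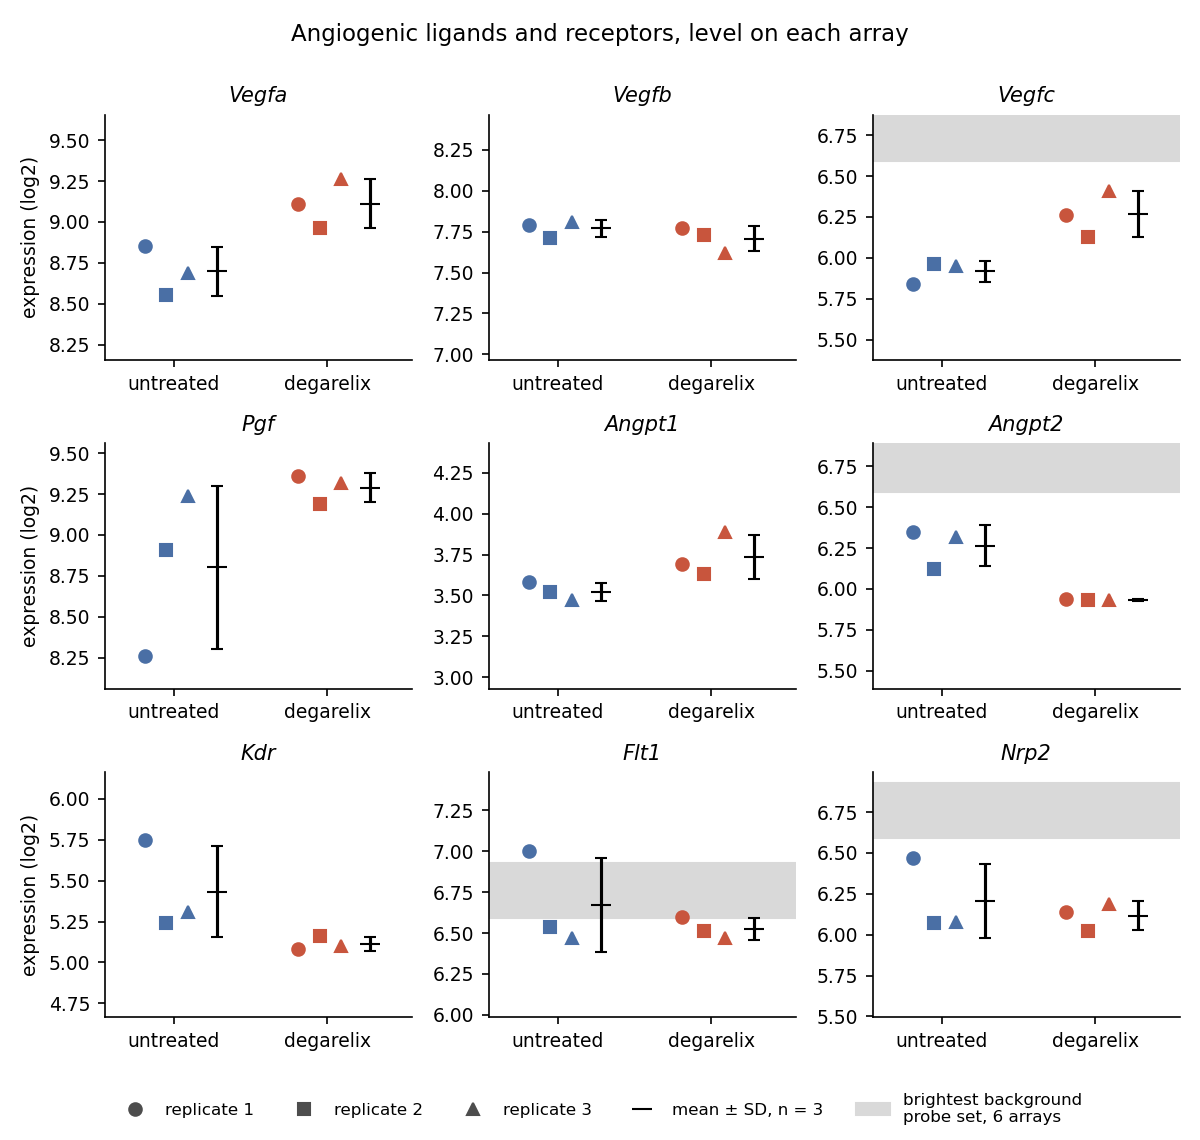
Level of each of the 9 genes (log2, y axes of equal length but different position) in 3 untreated (blue) and 3 degarelix (red) samples, 1 point per array, with the mean and SD of each group in black and the range of the brightest background probe set over the 6 arrays in grey. Vegfa and Vegfc separate upwards and Angpt2 downwards, while untreated replicate 1 is low for Pgf and high for Kdr, Flt1 and Nrp2.

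Pgf, which encodes placental growth factor, read 8.26, 8.91 and 9.24 in untreated and 9.36, 9.19 and 9.32 in degarelix samples. The degarelix values were close together, whereas the untreated ones spread over about 1 log2 unit with replicate 1 lowest, and the highest untreated value exceeded the lowest degarelix value. The change of 0.49 (SE 0.21, 95% interval 0.01 to 0.96) missed the threshold (limma adjusted p = 0.184). Without untreated replicate 1 it was 0.21 (limma adjusted p = 0.227) and without untreated replicate 3 it was 0.70 (0.0556). The size of this value thus depended on which untreated samples were used. Vegfb read 7.79, 7.71 and 7.81 in untreated and 7.77, 7.73 and 7.62 in degarelix samples. Its groups overlapped, and the change of -0.06 had a 95% interval of -0.23 to 0.10 (limma adjusted p = 0.595).

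The sequence just before the start site is shown for the ligand genes that rose, Vegfa and Vegfc, and for Vegfb, a ligand of the same family that did not pass the test. Each stretch holds the 250 bases before a start site in RefSeq (assembly GRCm38.p6), written 5′ to 3′ along the gene's own strand, with GC boxes (GGGCGG on either strand), the sites that Sp1 family factors bind, in capitals. The Vegfa stretch is chr17:46032378-46032627 on the minus strand, the Vegfc stretch chr8:54077282-54077531 on the plus strand and the Vegfb stretch chr19:6987652-6987901 on the minus strand.
Vegfa: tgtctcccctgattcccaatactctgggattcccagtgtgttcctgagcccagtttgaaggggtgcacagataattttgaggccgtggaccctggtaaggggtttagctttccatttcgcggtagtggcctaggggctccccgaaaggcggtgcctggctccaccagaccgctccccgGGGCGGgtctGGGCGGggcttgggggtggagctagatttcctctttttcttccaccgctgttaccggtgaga
Vegfc: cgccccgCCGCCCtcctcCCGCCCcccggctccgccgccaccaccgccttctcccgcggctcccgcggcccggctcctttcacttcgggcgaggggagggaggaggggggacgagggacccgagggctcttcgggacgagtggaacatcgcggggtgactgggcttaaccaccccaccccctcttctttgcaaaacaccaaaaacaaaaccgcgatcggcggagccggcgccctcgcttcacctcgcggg
Vegfb: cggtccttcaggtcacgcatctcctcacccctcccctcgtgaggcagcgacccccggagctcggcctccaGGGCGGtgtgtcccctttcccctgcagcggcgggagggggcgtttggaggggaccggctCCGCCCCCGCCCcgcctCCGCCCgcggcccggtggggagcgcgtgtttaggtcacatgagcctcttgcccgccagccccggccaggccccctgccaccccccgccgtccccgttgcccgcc
The Vegfa and Vegfc stretches each held 2 GC boxes and the Vegfb stretch 4. Of the 10 genes, 8 had entries in the table, with 10 start sites between them; Angpt1 and Angpt2 are the others. A GC box stood in 9 of these 10 stretches and in 32.7% of all 32851 promoter stretches of the same length. The median GC content of all stretches was 52.4%, and the 3 printed ones held 59.2% (Vegfa), 71.6% (Vegfc) and 76.4% (Vegfb). The ACGTG form of the hypoxia response element core (both strands) was in 1 of the 10, at a further start site inside Vegfa, and in 16.6% of all. Other forms of this core, such as GCGTG, were not counted. The half-site of the androgen and glucocorticoid receptors (AGAACA, both strands) was in 0 of the 10 and in 16.1% of all. The TATA box (TATAAA, both strands) was in 1, that of Flt1, and in 12.4% of all. The motifs were searched separately, and matches of different motifs could overlap. A match or its lack describes these letters and not the binding of a factor.

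Angpt2, which encodes the angiopoietin that loosens vessels, fell. It read 6.35, 6.12 and 6.32 in untreated and 5.94, 5.93 and 5.93 in degarelix samples, so that the groups did not overlap and the treated values were nearly equal. The means were 6.26 ± 0.12 and 5.93 ± 0.01 (SD, n = 3 per group), which makes the untreated level 1.26-fold higher (change -0.33, SE 0.08, limma adjusted p = 0.0289). The call held under each scaling and was lost in limma without untreated replicate 3 (adjusted p = 0.103), degarelix replicate 1 (0.0904), degarelix replicate 2 (0.101) or degarelix replicate 3 (0.0534), with changes of -0.40 to -0.29 over the alternatives. All 6 values lay below the brightest background probe set. Angpt1, which encodes the steadying angiopoietin, read 3.58, 3.52 and 3.47 in untreated and 3.69, 3.63 and 3.89 in degarelix samples. Its groups did not overlap, but the change of 0.21 (95% interval 0.02 to 0.41) missed the threshold (limma adjusted p = 0.153).

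The receptor genes did not pass the test. Kdr, which encodes the main signalling receptor of vascular endothelium, read 5.75, 5.24 and 5.31 in untreated and 5.08, 5.16 and 5.10 in degarelix samples. The degarelix values all lay below the untreated ones, with untreated replicate 1 far above the rest, and the change of -0.32 had a 95% interval of -0.60 to -0.03 (limma adjusted p = 0.153). Without untreated replicate 1 it was -0.16 (limma adjusted p = 0.178). Flt1, whose product binds the A and B factors and placental growth factor, read 7.00, 6.54 and 6.47 in untreated and 6.60, 6.51 and 6.47 in degarelix samples. Apart from untreated replicate 1 the values of both groups lay together. The change was -0.14 (95% interval -0.44 to 0.16, limma adjusted p = 0.515) and 0.02 without that sample. Nrp2, a co-receptor for Vegfc and for semaphorin 3F, also had its highest value in untreated replicate 1, at 6.47, 6.07 and 6.08 in untreated and 6.14, 6.02 and 6.19 in degarelix samples. Its change was -0.09 (95% interval -0.35 to 0.17, limma adjusted p = 0.648) and 0.04 without untreated replicate 1.

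Some markers of other cell types differed between these samples. The summed level of 11 macrophage markers (log2 of the summed linear values) was 10.84 in untreated replicate 1 against 9.44 and 10.02 in the other untreated samples and 9.42 to 9.47 in degarelix samples, although the sort removed cells with myeloid antigens. Ptprc and Itgam, which encode the sorted-out antigens CD45 and CD11b, had untreated means of 4.03 and 5.65 and degarelix means of 3.75 and 5.27. Adgre1, which encodes the other sorted-out antigen, had means of 5.39 and 4.97. Ptprc, Itgam and Adgre1 were each highest in untreated replicate 1, at 4.47, 6.15 and 6.05. None of the 11 passed the test, against 11.7% of all genes, and all 11 changes were below 0. Of the 11, 7 lay below the brightest background probe set on every array. On each array 30.3% to 35.1% of all genes lay above that probe set. Of 15 measured endothelial markers, 10 lay below it on every array, among them Pecam1 (means 6.58 and 6.32), Tek and Emcn, while Cdh5 (7.59 and 7.21) and Cldn5 (7.20 and 7.38) lay above it on all 6. The summed endothelial level was 10.15 to 10.43 in untreated samples, highest in replicate 1, and 10.11 to 10.16 in degarelix samples. Vwf, which encodes von Willebrand factor, fell (-0.71, limma adjusted p = 0.0075), and the other endothelial markers did not pass the test (median change -0.06). That is 1 of 15 lower, against 7.51% of all genes, a share near that of all genes. Of 10 markers of pericytes and smooth muscle 2 fell, against 7.51% of all genes. They were Rgs5 (-0.73, limma adjusted p = 0.0072) and Abcc9 (-0.49, 0.0299), both below the brightest background probe set on every array. The others did not pass the test, with Pdgfrb at 0.14 and Cspg4 at 0.19, 4 of the 10 changes were above 0 and the median was -0.06. The summed level was 10.56 to 10.76 in untreated and 10.38 to 10.67 in degarelix samples. Of 9 measured fibroblast markers 2 rose, Dcn (1.46, limma adjusted p = 0.0147) and Fbln1 (1.07, 0.00061), against 4.19% of all genes. For these markers 8 changes were above 0, while Postn was at -0.68 and did not pass the test. The summed fibroblast level was 11.22 to 11.60 and 11.28 to 11.95, highest in degarelix replicate 3, the sample in which Vegfa, Vegfc and Angpt1 were also highest. Without that sample the changes of Vegfa and Vegfc were 0.34 and 0.28. All 10 neutrophil markers lay below the brightest background probe set on every array. Of the 10, 1 rose, against 4.19% of all genes, namely Ly6g (0.38, limma adjusted p = 0.0474). The part of such cells in the values of the 9 genes was not tested. Of 9 measured markers of prostate tumor epithelium 1 fell, Cldn3 (-0.31, limma adjusted p = 0.0385), against 7.51% of all genes. The others did not pass the test, with Krt8 at 0.38 and Hoxb13 at -0.19. In this list 6 changes were above 0 and the median was 0.12. Its summed level was 12.39 to 12.95 in untreated samples, lowest in replicate 1, and 12.75 to 12.89 in degarelix samples.

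**Figure D2:**
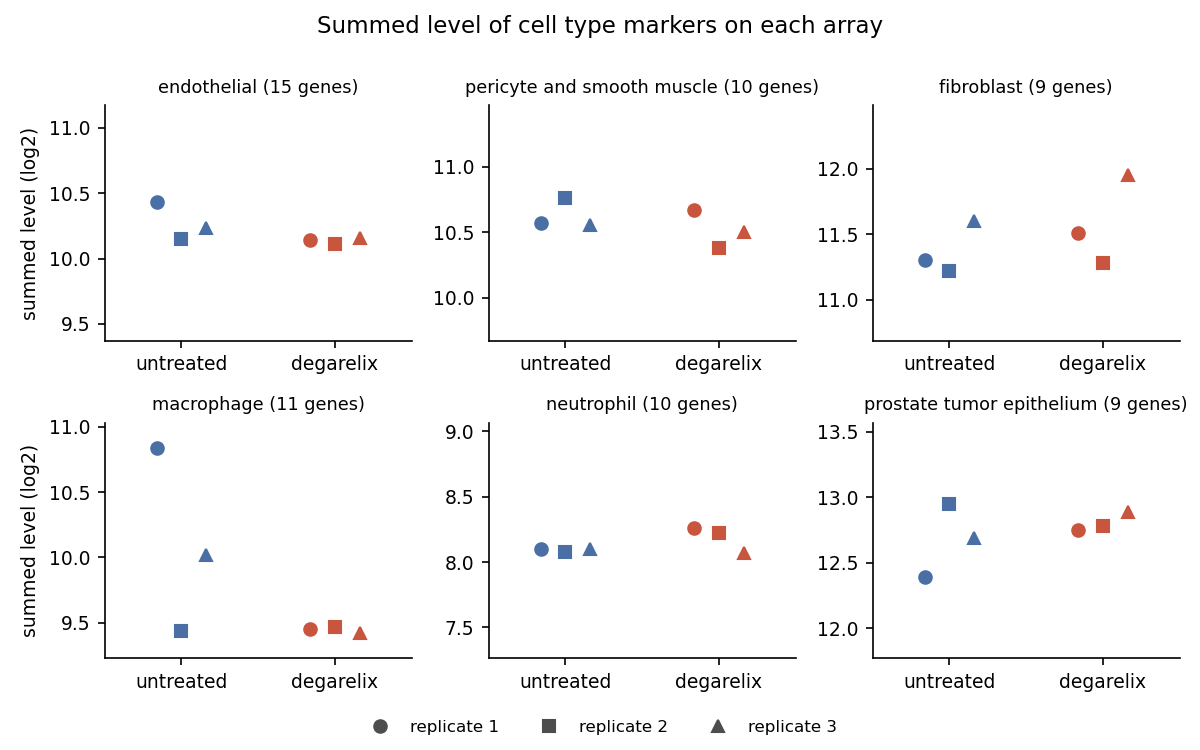
Summed level of each list of cell type markers (log2 of the summed linear values, y axis, equal length in each panel) on each array, untreated in blue and degarelix in red, with the replicate given by the symbol. Untreated replicate 1 stands out for macrophage markers at 10.84 and degarelix replicate 3 for fibroblast markers at 11.95.

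Whether genes of the same family changed unequally was tested on their difference within each array, which is free of a shift shared by both. Of 6 pairs, 5 could be computed; the pair of Nrp1 and Nrp2 lacks Nrp1. With 3 arrays against 3 the smallest two-sided p of an exact permutation test is 0.1, and 0.167 after adjustment over the 5 pairs was the lowest adjusted value here. The Vegfa minus Vegfb difference was 1.06, 0.84 and 0.88 in untreated and 1.34, 1.23 and 1.63 in degarelix samples, a shift of 0.47 without overlap (exact permutation p = 0.1). The Angpt2 minus Angpt1 difference was 2.77, 2.60 and 2.85 against 2.25, 2.30 and 2.04, a shift of -0.55 without overlap (exact permutation p = 0.1). Angpt2 and Angpt1 both lay below the brightest background probe set on every array, so the size of their shift is uncertain. The Flt1 minus Kdr difference shifted by 0.17, also without overlap (exact permutation p = 0.1). Kdr lay below the brightest background probe set on every array and Flt1 above it on 1, so the size of this shift is uncertain too. Vegfa minus Vegfc and Vegfa minus Pgf overlapped between the groups, with shifts of 0.06 and -0.08 (exact permutation p = 0.7 and 1).

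**Figure D3:**
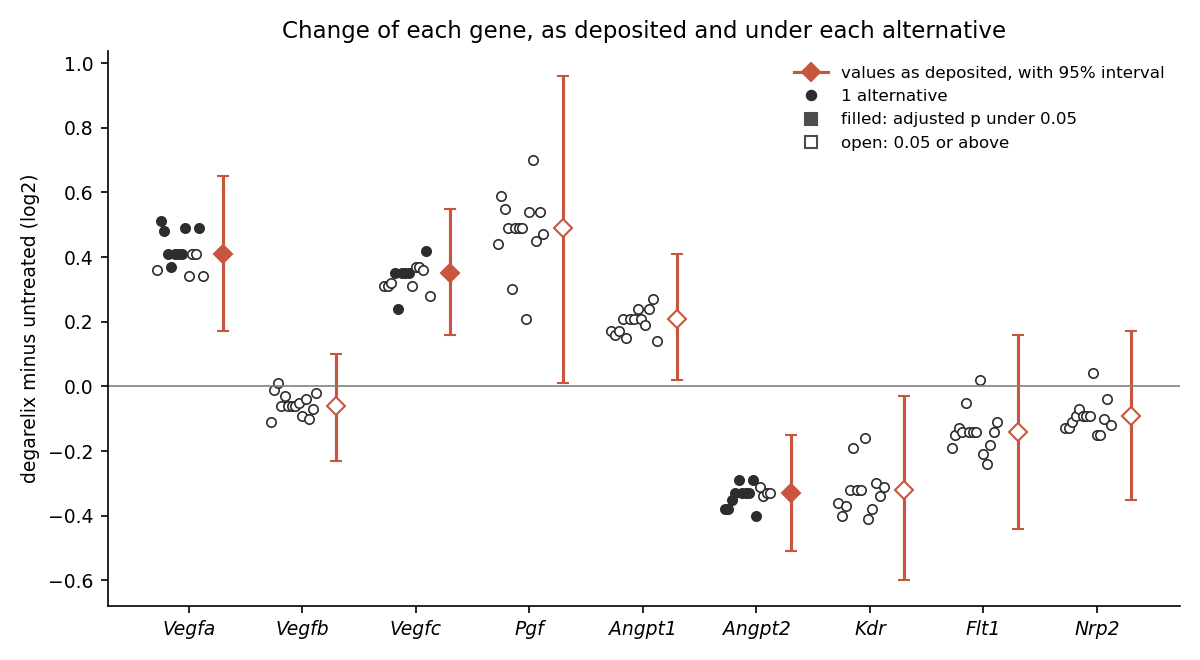
Change of each of the 9 genes (degarelix minus untreated, log2, y axis) with its 95% interval (red diamonds) and under each alternative scaling, variance model, filter, block or left-out sample (black circles, filled where the limma adjusted p was under 0.05). Vegfa stays between 0.34 and 0.51, Vegfc between 0.24 and 0.42 and Angpt2 between -0.40 and -0.29, each with open and filled circles.

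Among 26 measured ligands of other angiogenic pathways, 7 were called higher, against 4.19% of all genes, and 2 lower, against 7.51%, a share near that of all genes. The median change was 0.20. The class III semaphorin genes Sema3f and Sema3b led the rises. Sema3f, whose product binds the neuropilin that Nrp2 encodes and repels endothelial cells, read 8.02, 8.03 and 8.09 in untreated and 9.19, 9.23 and 9.24 in degarelix samples, a 2.25-fold rise (change 1.17, SE 0.06, limma adjusted p = 5.45e-05). Sema3b rose by 0.90 (limma adjusted p = 0.000241). Angpt4, a further angiopoietin gene, rose by 0.67, Pdgfd, a platelet-derived growth factor gene, by 0.66, Mdk, which encodes midkine, by 0.66 and Ccn1, a matricellular protein gene, by 0.45 (limma adjusted p = 0.00177 to 0.00413). Apln, which encodes the vessel peptide apelin, fell from 6.58, 6.12 and 6.90 in untreated to 5.06, 4.89 and 5.35 in degarelix samples. The change was -1.43 (SE 0.19, limma adjusted p = 0.00243), of uncertain size because Apln exceeded the brightest background probe set on only 1 of 6 arrays and in no degarelix sample. Pdgfd did so on no array, and Angpt4 and Adm on 3 each. Adm, which encodes the vasodilator adrenomedullin, fell by 0.74 (limma adjusted p = 0.0152), a call lost without degarelix replicate 1 (0.0694) or degarelix replicate 2 (0.0582). Vegfd, the other lymphatic factor gene, had a change of 0.05 (95% interval -0.10 to 0.20).

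Of 22 further receptor and co-receptor genes, 3 rose, against 4.19% of all genes, and none fell in limma, against 7.51% (median 0.06). They were Fgfr1, a fibroblast growth factor receptor gene (0.83, limma adjusted p = 0.00732), Met, the receptor gene for hepatocyte growth factor (0.55, 0.00864), and Itgav, an integrin gene (0.36, 0.0336). The call of Itgav was lost with median centring (limma adjusted p = 0.0888) and on leaving out untreated replicate 2 (0.109), untreated replicate 3 (0.0819), degarelix replicate 1 (0.0959), degarelix replicate 2 (0.0845) or degarelix replicate 3 (0.07). The endothelial receptor genes of this list that were named whatever their value had changes near 0. They were Tek, the angiopoietin receptor gene, at 0.08 (95% interval -0.11 to 0.26), its relative Tie1 at 0.00 (-0.22 to 0.22) and Flt4, the receptor gene for the lymphatic factors, at -0.03 (-0.22 to 0.16). All of them lay below the brightest background probe set on every array, and the direction of each flipped with the scaling, the array weights or the samples used.

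Of 11 measured inhibitors of angiogenesis, 3 were called higher, against 4.19% of all genes, and 1 lower, against 7.51% (median 0.14). Without degarelix replicate 1 the counts were 2 and 0, while that over all genes fell from 3526 to 1590. Serpinf1, which encodes pigment epithelium-derived factor, rose by 0.66 (limma adjusted p = 0.00378) and Timp3, a metalloproteinase inhibitor gene, by 0.45 (0.0107). Thbs2, which encodes thrombospondin 2, rose by 0.86 (limma adjusted p = 0.0335), from 8.43, 8.46 and 8.69 to 9.44, 8.88 and 9.86. Its call was lost with median centring (adjusted p = 0.084), with array weights (change 0.53, 0.0526), and in limma on leaving out untreated replicate 1 (0.0638), untreated replicate 2 (0.0865), untreated replicate 3 (0.0608), degarelix replicate 1 (0.118) or degarelix replicate 3 (0.0565). Thbs2 was highest in degarelix replicate 3, as were Dcn (9.43) and the summed fibroblast markers, whose part in it was not tested. Cxcl10, a chemokine gene whose product restrains vessel growth, fell by 0.62 (limma adjusted p = 0.0115), a call lost without degarelix replicate 1 (0.0535), and lay below the brightest background probe set on every array.

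Of 13 genes that regulate Vegfa or the hypoxia-inducible factors, 1 rose, against 4.19% of all genes, and 2 fell, against 7.51% (median -0.15). Those that fell encode oxygen-sensing prolyl hydroxylases, which mark hypoxia-inducible factors for degradation: Egln1 read 8.27, 8.25 and 8.55 in untreated and 7.51, 7.59 and 7.59 in degarelix samples (change -0.79, SE 0.09, limma adjusted p = 0.00125), and Egln2 changed by -0.62 (0.00159). Stat3, a transcription factor gene that can drive Vegfa, rose by 0.40 (limma adjusted p = 0.00959). Hif1a and Epas1, which encode the hypoxia-inducible subunits themselves, had changes of 0.27 and -0.32 that missed the threshold (limma adjusted p = 0.0882 and 0.0586). Hif1a passed with cyclic loess (adjusted p = 0.0486), quantile normalization (0.0334) and array weights (0.024). Epas1 passed in limma with median centring (adjusted p = 0.0364), array weights (0.0142), the filter on dim genes (0.0421) and the replicate block (0.0464), and without untreated replicate 3 (0.0292).

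Of 16 hypoxia targets other than Vegfa, 7 fell, against 7.51% of all genes, and 3 rose, against 4.19% (median -0.29). Without degarelix replicate 1 the counts were 3 lower and 2 higher, 5 in all in place of 10. The count over all genes fell in that run too, from 3526 to 1590. Ero1a, an oxidoreductase gene of the secretory pathway, had the lowest change at -1.88 (limma adjusted p = 1.27e-05), followed among the named genes by Bnip3, a mitophagy gene, at -1.03 (0.000477), Adm, already given, and Ldha, which encodes lactate dehydrogenase A, at -0.54 (0.00165). Pgk1, a glycolytic enzyme gene, fell by 0.44 (limma adjusted p = 0.0212) and Ankrd37 by 0.39 (0.0187). Ndrg1, a stress-response gene, rose by 1.02 (0.014 in limma), Slc2a1, a glucose transporter gene, by 0.67 (0.00141) and the hexokinase gene Hk2 by 0.61 (0.00117). Vegfa moved in the direction of these 3 genes and opposite to the 7 that fell. Any part of hypoxia in its change was not tested. In limma the call of Pgk1 was lost without untreated replicate 2 (adjusted p = 0.0609), untreated replicate 3 (0.0679), degarelix replicate 1 (0.0841) or degarelix replicate 3 (0.0539), that of Ankrd37 on leaving out untreated replicate 3 (0.0605), degarelix replicate 1 (0.0776) or degarelix replicate 2 (0.0819) and that of Ndrg1 without degarelix replicate 1 (0.0577).

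Of 17 measured genes that relay the signal of vascular endothelial growth factor receptors inside the cell, 2 rose, against 4.19% of all genes, and none fell in limma, against 7.51% (median 0.11). They were the adaptor gene Shb (0.36, limma adjusted p = 0.0171) and the kinase gene Src (0.31, 0.0258). Shb lost its call without untreated replicate 2 (limma adjusted p = 0.0562), degarelix replicate 1 (0.0684) or degarelix replicate 2 (0.0579), and Src on leaving out untreated replicate 2 (0.0993), untreated replicate 3 (0.0793), degarelix replicate 1 (0.0988) or degarelix replicate 2 (0.0989). Over all these lists, each gene counted once, 19 of 103 measured genes were higher, against 4.19% of all genes, and 11 lower, against 7.51%. The median change was 0.08, and that of all genes 0.04.

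**Figure D4:**
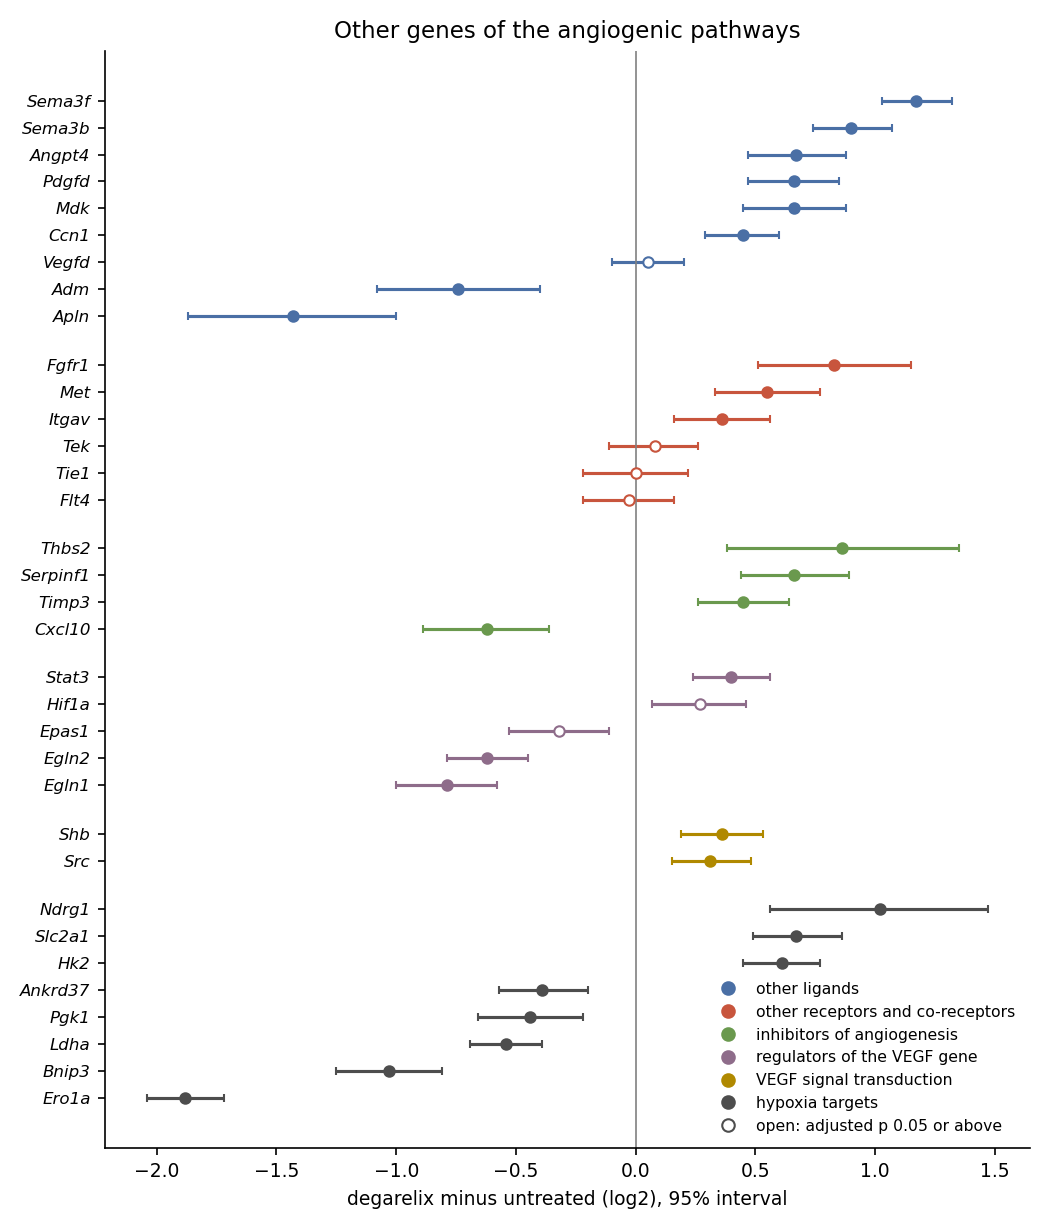
Change (degarelix minus untreated, log2, x axis) with its 95% interval for the genes of each list with the lowest adjusted p, up to 6 per direction, and for Vegfd, Flt4, Tek, Tie1, Hif1a and Epas1, coloured by list and open where the limma adjusted p was 0.05 or above. Sema3f at 1.17 and Ero1a at -1.88 mark the ends, and Tek, Tie1 and Flt4 lie near 0.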

How the data were processed

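Biotin-labelled RNA (integrity number at least 9) from 6 tumors was hybridised to 1 array each, 3 untreated and 3 degarelix. The deposited values are on a log2 scale, read from their range (1.96 to 13.69 over transcript clusters); per the submitters' processing notes the authors used Affymetrix Expression Console and RMA, with versions, settings and build not given in these sources. RMA removes background and equalises arrays, which compresses changes of dim genes. Of 72688 rows, 6732 control probe sets were left out. Of 65956 transcript clusters, 30604 had 1 gene symbol in the platform annotation, 2146 several and 33206 none; 827 symbols were updated through Entrez identifiers (RefSeq table, GRCm38.p6). The brightest cluster over the 6 arrays stood for each of 30142 genes, and each of the 9 genes had 1 cluster.

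Groups were compared with limma 3.58.1 (R 4.3.3; lmFit and eBayes, two-sided, Benjamini-Hochberg over all genes, threshold 0.05), tested on simulated data, and pairs of genes with exact permutation tests. Genes, lists and tests were chosen with earlier results of these data known. Named were all 9 genes found, up to 6 called genes per list and direction by adjusted p, and 6 fixed genes (Flt4, Tek, Tie1, Vegfd, Hif1a, Epas1). Alternatives were 3 scalings, a robust variance model with an intensity trend, weighted arrays, removal of genes below the median level, the mean of clusters, a block for the replicate number, omission of each sample and a test against a 1.2-fold change. The labels call the samples biological replicates; 3 arrays per group limit the precision.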

Additional observations from a re-analysis of the deposited data

How the results depend on the processing

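Results on dim genes (Vegfc, Angpt1, Angpt2, Kdr, Nrp2, and also Apln, Pdgfd and Cxcl10) are limited by signal close to background probe sets. The 3 scalings did not turn the direction of Vegfa, Vegfc, Pgf, Angpt1, Angpt2 or Kdr. The variance model, filter, block and mean of clusters cannot, as they leave the change of these genes as it was. Weighting arrays or leaving out a sample did not turn Pgf, and cannot turn the others, whose groups did not overlap. The count over all genes was 3526 and became 9912 with array weights and 749 against a 1.2-fold change; leaving out single samples gave 1590 to 4700. The count among the 9 genes was 3, then 1 with median centring and 0 against a 1.2-fold change (limma's treat, 0 also at an unadjusted p under 0.05), and 0 to 2 leaving out single samples. The count of other pathway genes was 30, then 52 with array weights, and 20 to 34 leaving out single samples; by list, array weights gave 16 other ligands, 7 receptors, 8 regulators and 6 signalling genes, cyclic loess gave 5 regulators and 4 signalling genes, and leaving out degarelix replicate 1 gave 5 hypoxia targets and 2 inhibitors. Values near 0 changed sign: Vegfb to 0.01 with quantile normalization, Vegfd to -0.04 with cyclic loess and -0.01 with quantile normalization, Flt4 to 0.06 with array weights, Tek to -0.01 with cyclic loess, and Tie1 to -0.04 with median centring, -0.02 with cyclic loess and 0 with quantile normalization. Leaving out single samples, Flt1 ranged over -0.24 to 0.02, Nrp2 -0.15 to 0.04, Flt4 -0.06 to 0.04, Tek 0 to 0.14, Tie1 -0.07 to 0.10, Vegfa minus Vegfc -0.04 to 0.17 and Vegfa minus Pgf -0.30 to 0.27. The cause of these shifts was not tested. Same-numbered samples deviated together at correlations of 0.16, 0.04 and 0.20, so the numbers were not taken as pairs, although every sample correlated best with its own number; with the replicate block 3806 genes, 3 of the 9 genes and 32 pathway genes were called. The pair of Nrp1 and Nrp2 was not run, and Angpt1, Kdr, Vegfd, Pdgfd and Tek have no value under the filter on dim genes.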
